A study of Mus musculus with 6 samples.

Results

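Tandem 3′ splice sites are pairs of acceptor sites so close together that the choice between them adds or removes only a few bases at the start of an exon. Here a pair counted as tandem when the 2 acceptors lay 12 bases apart or less in the authors' rMATS list of alternative 3′ splice sites. That condition held for 1008 of the 3282 listed events (30.7%), at 950 distinct pairs of sites in 859 genes. The long form uses the upstream acceptor and keeps the extra bases in the exon, and the short form uses the downstream acceptor and removes them.

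The RNA came from the tibialis anterior, a fast-twitch muscle of the mouse shin. The 3 control libraries (replicates 1, 2 and 3) carried HSA-Cre Tg/+; Acin1 +/+ and the 3 knockout libraries (replicates 5, 7 and 8) carried HSA-Cre Tg/+; Acin1 F/F, so that both groups carry the Cre recombinase, which the human skeletal actin promoter drives in muscle fibres. Acinus, the product of Acin1, binds RNA in the nucleus and joins spliceosomes and exon junction complexes as part of the ASAP complex. Vessel, nerve and connective tissue cells of the whole muscle are not targets of this promoter, and age, sex and batch are not given in the labels used here.

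An intron ends in a branch point, a stretch of pyrimidines and an AG dinucleotide, which the U2AF proteins and the catalytic spliceosome read in turn. Where a second AG follows closely, the spliceosome can join the upstream exon to either, and the commonest arrangement is the NAGNAG motif, in which the acceptors are a codon's length apart. Such pairs insert or leave out an amino acid without moving the reading frame, whereas a distance that is no multiple of a codon shifts it. A downstream TAG that lands between codons would put a stop codon into the long form.

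The sequences below show the exon junction of the long form in messenger RNA sense, read from GENCODE M21 transcripts (GRCm38) that were matched by gene identifier and exon lengths. Lower case marks the end of the upstream exon and the start of the shared part of the downstream exon, and capitals mark the bases that only the long form keeps. The first set holds the targeted gene and 3-base pairs whose values are described below, the second set longer insertions that keep the reading frame, the third set insertions that shift it, and the fourth set 3-base pairs in which TAG falls between codons of the short form.
Acin1: tctccgttgtctCAGctaccaaggggg
Map2k2: gccccatcagtgTAGgtcatgggatgg
Trip10: caataaggagagCAGctcagaagagcc
Terf2: agagcctccaagCAGacagcctcagaa
Pcbp2 (3 bases, exon junction with many reads): aaggctattgggCAGgtttggatgcat
Pcbp2 (3 bases, exon junction with few reads): ccggattcagtgCAGgtttggatgcat
Srsf5: caaaaggcacagCAGgtcaagaagcag
Rbm39: catcaaattaagCAGaagacgttcccg
Ppp3cb: accagtttgatgTAGgttcagctgcag
Srl: ttgctcaatgggAAGaggtggaggatg
Cacna1s: cccgtgccagCTCTCCCAGgcagagcatc
Pcbp2 (12 bases): atgttggagACTCTCTCCCAGtcccccccg
Nptn: ttcctgatgATGATGAACCAGctgggccaa
Ybx1: attccgaagCATTCATTTCAGgggccctcc
Tnni1: ccggaagttgagAGgaaatccaagat
Cox4i1: ttcgagcacatgGGAGtgttgtgaagag
Rpl13a: acagaaacaagtTAAAGtatctggccttt
Ndufv1: cagatggcagGACCCCACAGgcccaagtat
Galt: gctaatggggagTAGgtgaatccccac
Uqcc1: aacacaagtaagTAGcttcttactacc
Mkln1: tggtacagcaagTAGtaccgtgaacag
In every sequence shown the capitals end in AG, the dinucleotide of the downstream acceptor. The intron bases that hold the upstream acceptor's AG are not shown, because no genome of the build of the files was used here.

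A distance of 3 bases dominated the list. It accounted for 614 of the 1008 events (60.9%), followed by 4 bases with 102 events, 5 bases with 81, 12 bases with 53, 6 bases with 44 and 9 bases with 38. Each of the other distances had between 2 and 18 events. Distances that are a multiple of 3 made up 749 events (74.3%).

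**Figure D1:**
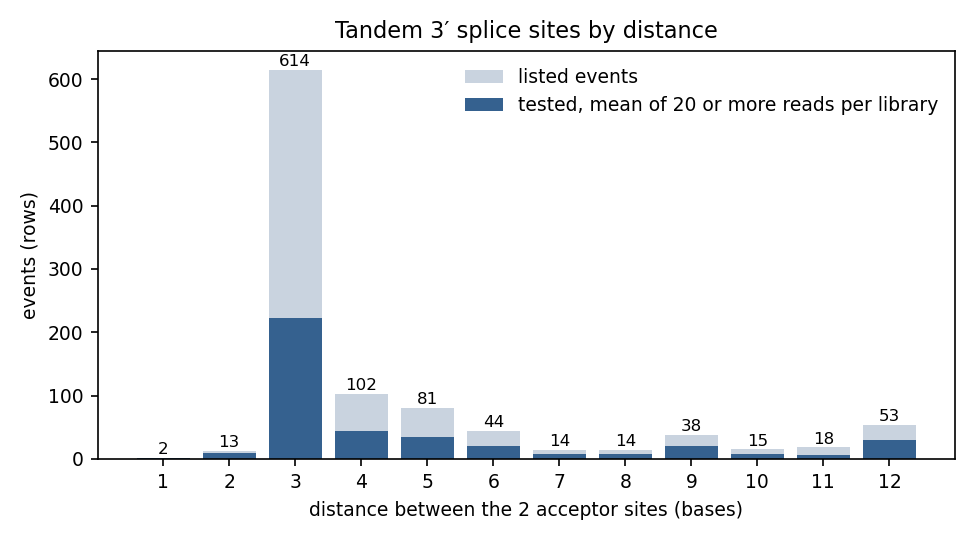
Number of listed tandem events (vertical axis) by distance between the 2 acceptor sites in bases (horizontal axis), with all listed events in pale bars and tested events in dark bars. Tested events had a mean of 20 or more junction reads per library and at least 1 read of each form. The bar at 3 bases holds 614 events and none of the other bars exceeds 102.

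The extra bases could be read for 938 of the 1008 events, in 902 pairs of sites. Both forms were in the annotation for 840 events and only the long form for 98, while 70 had no usable match. Of the 889 matched pairs with at least 3 extra bases, 884 ended in AG. Among 555 pairs at 3 bases, the extra triplet was CAG in 402 (72.4%), AAG in 83 (15.0%), TAG in 57 (10.3%) and GAG in 10 (1.80%). CAG was thus the downstream acceptor of most 3-base pairs, and GAG the rarest of the 4 AG triplets.

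In annotated transcripts of the long form, the extra bases lay in coding sequence for 752 of the 902 matched pairs. In these, 596 distances (79.3%) were a multiple of 3, against 89 of the 150 other pairs (59.3%). The others were 85 pairs in 5′ and 16 in 3′ untranslated regions, 42 in transcripts without a coding sequence and 7 at its edge. Within the coding sequence of the short form, the position of the insertion could be set for 423 pairs at 3 bases. TAG was the extra triplet in 7 of 155 pairs that insert between codons (4.52%), in 25 of 176 that insert after the first base of a codon (14.2%) and in 10 of 92 that insert after the second (10.9%). These shares describe the list and were not tested.

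The use of the long form was calculated in each library as the percentage of length-scaled junction reads that rMATS counted for the long form. The events were covered unevenly, with a median over events of 13.8 junction reads per library and a highest mean of 6837, in Cox4i1. Together they held 73492, 65342 and 54267 junction reads in control and 69490, 76233 and 73520 in knockout, in the order in which the libraries are listed. An event was tested where both forms together averaged 20 or more reads in a library and each form had at least 1, which 409 events passed (395 pairs, 367 genes) and 599 did not. The values below on use and on change therefore cover the better-read part of the list.

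At 3 bases both acceptors were commonly in use. The median over 214 tested pairs was 69.7% long form in control muscle, and the library medians were 69.0%, 70.8% and 70.9% in control and 66.4%, 70.2% and 69.5% in knockout. Between 10% and 90% long form was seen in 140 of these pairs, over 90% in 59 and under 10% in 15. The medians of control and knockout libraries overlapped. Most pairs whose distance is no multiple of 3 sat near the upstream site, with a control median of 98.2% over 111 pairs. Of these, 82 were over 90%, 17 between 10% and 90% and 12 under 10%.

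The longer distances that keep the frame varied among themselves. Their pooled control median was 83.3% over 70 pairs, with 91.1% at 6 bases (21 pairs), 95.3% at 9 bases (20 pairs) and 27.1% at 12 bases (29 pairs). The 12-base pairs were thus the group in which the downstream site had the larger share, with quartiles of 8.06% and 92.7%. Library medians at this distance were 27.3%, 27.3% and 38.7% in control and 38.8%, 28.4% and 35.5% in knockout, and the groups overlapped. At 4 bases the control median was 98.8% over 40 pairs and at 5 bases 97.5% over 33 pairs. For pairs over 12 bases apart, the control median over 1144 tested pairs was 80.1%.

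**Figure D2:**
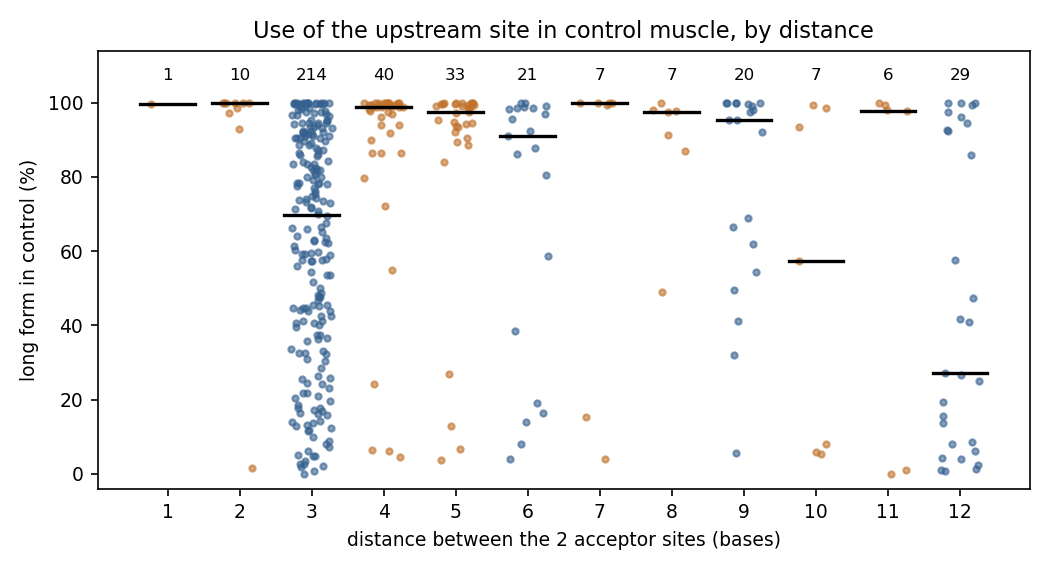
Percentage of the long form in control muscle, mean of 3 libraries (vertical axis), against the distance between the 2 sites in bases (horizontal axis), 1 point per tested pair, with the number of pairs above and a bar at the median. Blue marks distances that are a multiple of 3 and orange the others. The points at 3 bases fill the whole range around a median of 69.7%, and those at 4 and 5 bases lie mostly above 90%.

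The triplet at the downstream acceptor went with the use of the 3-base pairs. Median long-form use in control was 66.2% where that triplet was CAG (145 pairs) and 64.1% where it was TAG (26 pairs). It was 89.6% for AAG (32 pairs) and 99.7% for GAG (6 pairs). Of the GAG pairs, those in Aldh2, Tns1, Ctnnb1, Ptov1 and Alas1 ranged from 99.5% to 99.8%, and Uchl5, which encodes a deubiquitinase of the proteasome, stood at 51.6 ± 4.7% (SD, n = 3). Position was read from annotated transcripts of the long form. Galt, whose TAG falls between codons of the short form, therefore did not count as coding, and the label is not a contrast of position alone. By this label the control median at 3 bases was 72.0% over 187 coding pairs and 41.2% over 23 others. For distances that are no multiple of 3 it was 98.9% over 86 coding pairs and 92.1% over 19 others. These medians are descriptions, since pairs are not replicates of a condition.

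The 3 tested pairs in which TAG falls between codons of the short form were chosen for description after their values were seen. Uqcc1, an assembly factor of respiratory complex III, used the long form in 1.56%, 3.69% and 2.57% of control reads and 2.56%, 3.41% and 1.79% of knockout reads. Mkln1, which encodes muskelin, showed 7.05%, 7.60% and 0% in control and 7.37%, 3.69% and 7.48% in knockout. Both pairs stayed under 10% in every library and their groups overlapped. Galt, the uridylyltransferase of galactose breakdown, used the long form in 26.0%, 10.5% and 22.7% of control reads and 24.1%, 42.7% and 24.4% of knockout reads. Its groups overlapped too, and the change did not pass (adjusted p = 0.435, limma). Where TAG splits a codon, the median was 66.0% over 13 tested pairs that insert after the first base and 67.8% over 4 that insert after the second.

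Acin1 itself carries a tandem acceptor, with first exon bases at chr14:54884290-54884293 in the files' GRCm39 coordinates (minus strand, coding). The long and short junctions held 70 and 27, 42 and 10, and 46 and 3 reads in the control libraries. In the knockout libraries they held 5 and 2, 8 and 1, and 8 and 2 reads. Every knockout library had fewer reads of the long form than any control library. The share of the long form was 71.6%, 80.3% and 93.7% in control and 70.8%, 88.6% and 79.5% in knockout, so that the groups overlapped (adjusted p = 0.894, limma). Gene-level scaled reads of Acin1 were 1513, 1559 and 1413 in control and 1196, 1196 and 1195 in knockout, a log2 change of -0.32 ± 0.07 (SE; limma adjusted p = 0.0266).

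The comparison of knockout with control asked whether the loss of Acin1 in muscle fibres moves the choice between tandem acceptors. The log2 odds of long to short form, the logarithm of the ratio of their scaled reads, was tested with limma over all 1599 alternative 3′ splice sites that passed the filter, with Benjamini-Hochberg adjustment over all of them. At an adjusted p under 0.05, 1 of the 409 tandem events was called, in Tnni1, where 1.5% of all tested events were called (24 of 1599). Rises of the long form made up 7 of these 24 (0.438% of all tested), and the other 23 calls, 6 higher and 17 lower in knockout, lay at sites over 12 bases apart. The tandem share was thus no higher than the background. At an unadjusted p under 0.05 there were 27 tandem events, where the share over all tested was 9.51% (152 events). Groups that did not overlap were found in 35 tandem events, 17 of them higher in knockout, against 11.6% of all tested events.

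The Tnni1 call did not come with a shift in percentage. Tnni1 encodes the slow-fibre troponin I, the subunit that blocks contraction at low calcium, and its sites lie 2 bases apart at chr1:135732791-135732793. The long form had 4, 7 and 1 reads in control and 27, 21 and 83 in knockout, and the short form had 0 reads in every library except the third knockout library, with 1. The percentage was therefore 100% in every control library and 100%, 100% and 98.8% in knockout. The fitted log2 odds rose by 2.78 ± 0.70 (SE; adjusted p = 0.00619) while the mean percentage fell by 0.405 points. The fit adds 0.5 reads to each form, and with 0.1 reads added the adjusted p was 0.727 by limma. The exact two-sided permutation test of the percentage gave p = 1. Gene-level reads of Tnni1 were 35.9, 26.2 and 28.8 in control and 78.4, 101.9 and 385.9 in knockout (log2 change 2.14 ± 0.50, adjusted p = 0.0310), so the depth behind the event moved with the group. A quasi-binomial test, which adds no reads, called 0 of 409 tandem events (29 at an unadjusted p under 0.05, smallest adjusted p = 0.153) and 1.56% of all events. Limma was also run with at least 12 reads of the rarer form, a rule added after the data were seen. It called 0 of 263 tandem events (17 at an unadjusted p under 0.05, smallest adjusted p = 0.121) and 23 events over all distances.

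The size of change was small for most pairs. The median absolute difference between group means was 1.94 percentage points over the 409 tandem events and 1.72 over the 1190 events at greater distance. Differences over 10 points were found in 21 tandem events (5.13%) and 92 distant events (7.73%). On the log2 odds scale the median change was 0.04 with a median SE of 0.70, and the 95% interval lay wholly between -1 and 1 for 82 tandem events (20.05%) and 135 distant events (11.3%). For the remaining tandem events the interval held changes in the odds of 2-fold or more.

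**Figure D3:**
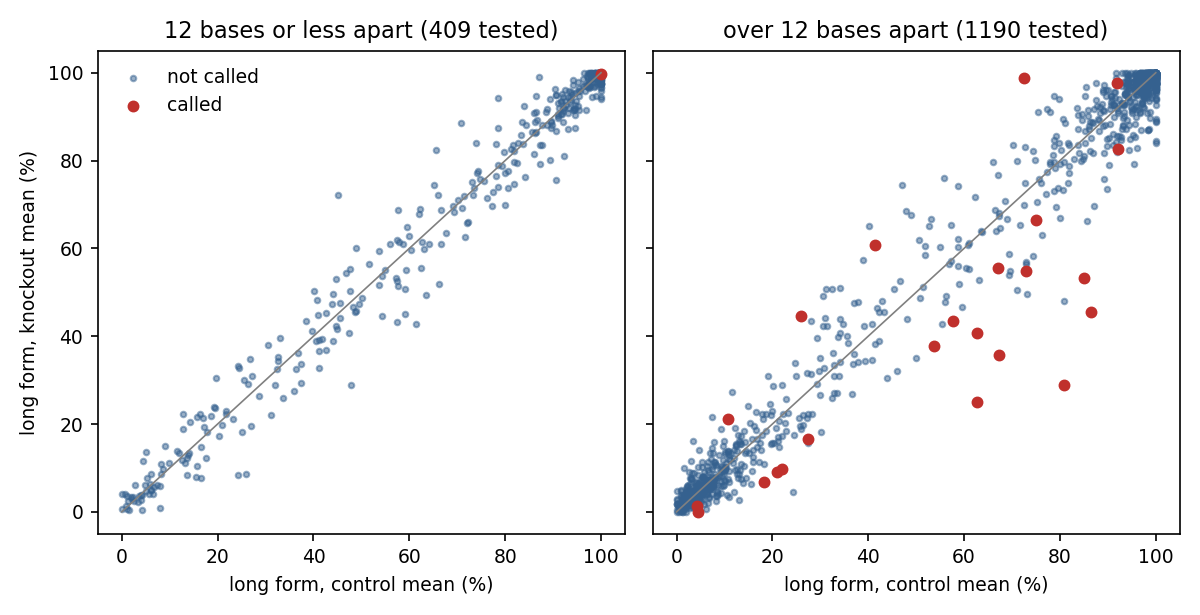
Mean percentage of the long form in the 3 knockout libraries (vertical axis) against that in the 3 control libraries (horizontal axis), for the 409 tested tandem events and the 1190 tested events over 12 bases apart, with events at an adjusted p under 0.05 in red. The single red point among tandem events is Tnni1, at 100% in control and 99.6% in knockout.

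In this fit the SE of an event followed from its read counts, so it does not show how closely the libraries agreed. With 60 or more reads of the rarer form over the 6 libraries, 146 tandem and 268 distant events remained, with median SEs of 0.34 and 0.35. Of these tandem events 0 were called by limma and 80 had an interval between -1 and 1. Of the distant events 20 were called and 130 had such an interval. Differences over 10 points were found in 9 of the 146 tandem events and in 41 of the 268 distant events, the largest 40.9. The largest among tandem events was 27.1 points, in Terf2, and without the third control library it was 9.40 points. The difference between the 2 classes was not tested.

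**Figure D4:**
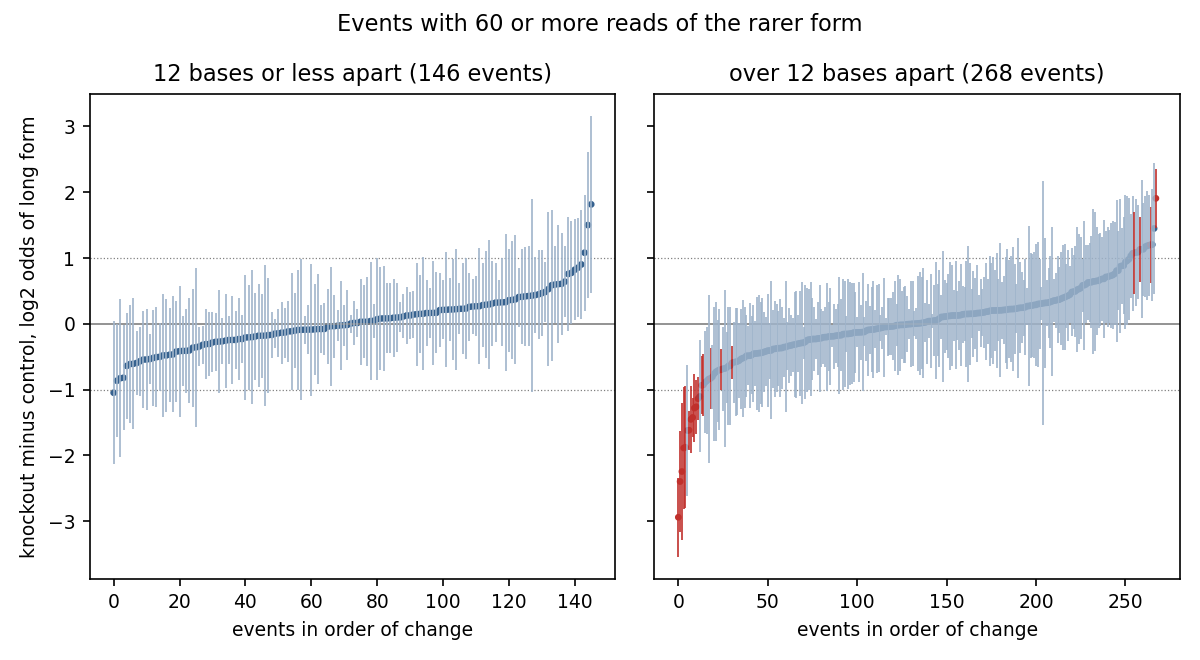
Change in log2 odds of the long form, knockout minus control, with its 95% interval (vertical axis), for each event with 60 or more reads of the rarer form in order of change (horizontal axis), tandem events on the left and events over 12 bases apart on the right. Red marks an adjusted p under 0.05, with 0 of 146 on the left and 20 of 268 on the right, and the dotted lines stand at -1 and 1.

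The tandem events with the next smallest p-values did not pass the adjustment, and those named here were chosen after their values were seen. Map2k2, the MEK2 kinase of the ERK pathway, adds TAG within a codon at chr10:80956877-80956880. Its long form took 33.2%, 34.3% and 33.3% of reads in control and 28.2%, 24.7% and 24.8% in knockout. All knockout libraries were below all control libraries, by 7.71 points on average, with a log2 odds change of -0.53 ± 0.20 (adjusted p = 0.223; exact permutation p = 0.1, the smallest that 3 against 3 allows). Trip10, an F-BAR protein that acts with Cdc42 on membranes and actin, adds CAG at chr17:57569354-57569357. It showed 44.1%, 42.2% and 41.4% in control and 35.6%, 38.03% and 36.9% in knockout (log2 odds change -0.34 ± 0.15, adjusted p = 0.411). These groups did not overlap either.

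Other pairs of this kind were measured less tightly. Terf2, a telomere-binding protein of the shelterin complex, showed 65.0%, 60.6% and 9.73% in control and 86.0%, 66.8% and 63.8% in knockout. The third control library held 1 long and 9 short reads, and the groups overlapped (log2 odds change 1.82 ± 0.68, adjusted p = 0.238). Without that library the change was 0.67. Nptn, the adhesion protein neuroplastin, gains ATGATGAACCAG in its long form at chr9:58557780-58557792 and showed 27.3%, 20.1% and 27.7% in control and 15.8%, 14.7% and 24.3% in knockout (adjusted p = 0.363). Arih2, a ubiquitin ligase, had means of 65.2 ± 5.2% and 74.4 ± 5.8% (SD, n = 3 each; limma adjusted p = 0.399). In both the groups overlapped. Plcg1, Rabep1, Itsn1 and Nsun5, which encode a phospholipase, an endosomal Rab5 effector, an endocytic scaffold and an RNA methyltransferase, had between 5 and 8 reads of the rarer form in all 6 libraries together. Their adjusted p-values ran from 0.148 to 0.372 by limma. The groups did not overlap in Plcg1, where the long form was higher in knockout, or in Rabep1, where it was lower.

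**Figure D5:**
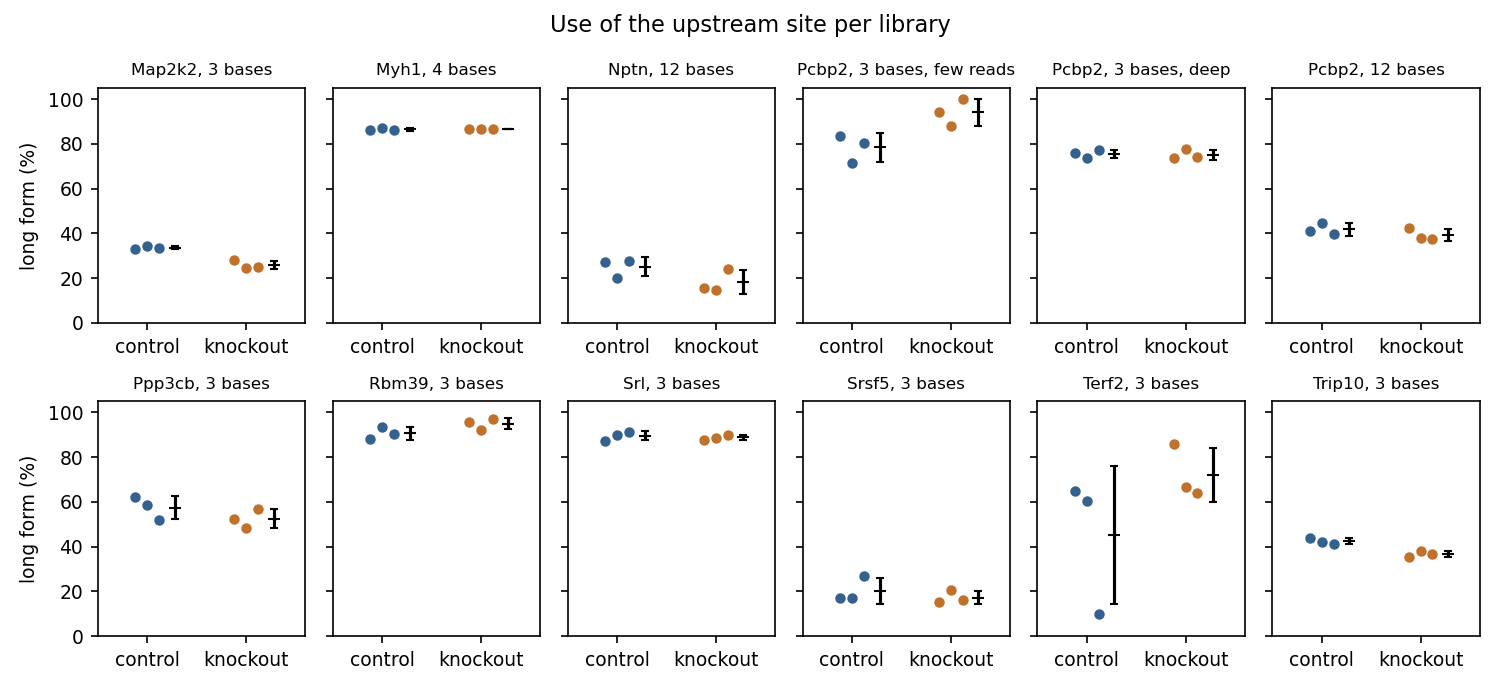
Percentage of the long form in each library (points, control blue and knockout orange) with the mean and SD of 3 libraries (bars), for tandem events named in the text, 1 panel each, the 3-base pair of Pcbp2 once for each of its upstream exons. Map2k2, Trip10 and the 3-base pair of Pcbp2 with few reads have groups without overlap, and Myh1 lies between 86.0% and 87.3% in all 6 libraries.

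Splicing-factor genes held 22 tested pairs, and 0 of these passed in either direction (smallest adjusted p = 0.514, limma). Over all tested events 1.5% were called, so that 0 calls in 22 pairs does not set this list apart. The median log2 odds change over them was -0.11, beside 0.03 over all tested events. Srsf5, an SR protein, used the long form at 17.1%, 16.9% and 27.0% in control and 15.4%, 20.5% and 15.95% in knockout (adjusted p = 0.691), while its gene-level reads fell by 0.35 on the log2 scale (adjusted p = 0.0242). Rbm39, an SR-related protein that resembles U2AF, showed 87.9%, 93.3% and 90.5% in control and 95.6%, 92.1% and 96.9% in knockout (adjusted p = 0.589). The groups of both genes overlapped. Rbm5, a splicing regulator of apoptosis genes, had 0 short reads in control and 2, 1 and 1 in knockout (adjusted p = 0.514). Rbm8a, the Y14 subunit of the exon junction complex, had 2 short reads in all 6 libraries, both in the second control library. Ptbp2, a polypyrimidine tract-binding protein, fell between 43.0% and 81.4% in all 6 libraries, with overlapping groups (adjusted p = 0.736).

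Pcbp2, which encodes a poly(C)-binding protein, has 2 tested tandem pairs. The 12-base pair at chr15:102392589-102392601 was read deeply and showed 40.97%, 44.8% and 39.5% in control and 42.3%, 38.2% and 37.4% in knockout. Its log2 odds change was -0.15 with a 95% interval from -0.37 to 0.07 (adjusted p = 0.736). The 3-base pair at chr15:102398187-102398190 was listed in 2 rows, which join the same acceptors to different upstream exons. With the upstream exon that had 407.5 reads per library, the long form took 75.8%, 73.6% and 77.2% in control and 73.8%, 77.8% and 74.1% in knockout (log2 odds change -0.02, 95% interval -0.33 to 0.29, adjusted p = 0.979). With the other upstream exon, at 30.7 reads per library, it took 83.7%, 71.3% and 80.6% in control and 94.3%, 88.2% and 100% in knockout. The groups overlapped in the first row and not in the second, where knockout libraries held 1, 3 and 0 short reads, against 7, 9 and 7 in control, and the log2 odds change of 2.14 ± 0.96 did not pass (adjusted p = 0.435). The count of 22 splicing-factor pairs takes the row with more reads.

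Contractile genes gave 3 tested pairs, of which Tnni1 was called and 2 did not pass, where 1.5% of all tested events were called. Myh1, the fast myosin heavy chain of type IIx fibres, has sites 4 bases apart in its 5′ untranslated region and was the most precisely measured pair. Its long form took 86.2%, 87.3% and 86.0% in control and 86.5%, 86.6% and 86.6% in knockout, from 5044 reads per library on average. The log2 odds change was 0.00 with a 95% interval from -0.13 to 0.14. Tnnt1, the slow troponin T, ranged from 32.7% to 74.4% in control and from 41.1% to 71.8% in knockout (adjusted p = 0.911), with 6 to 11 reads per control library. Its values scattered as widely within groups as between them.

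Calcium-handling genes gave 5 tested pairs and fibre membrane genes gave 4, and 0 of them passed in either direction. The share called over all tested events was 1.5%. Ppp3cb, a catalytic subunit of the phosphatase calcineurin, used its long form at 62.0%, 58.6% and 51.8% in control and 52.4%, 48.3% and 57.1% in knockout (adjusted p = 0.768). Srl, the sarcoplasmic reticulum protein sarcalumenin, stayed between 87.5% and 91.4% in all 6 libraries (adjusted p = 0.911), while its gene-level reads fell by 0.39 on the log2 scale (adjusted p = 0.0410). The groups overlapped for both. Cacna1s, the voltage sensor of excitation-contraction coupling, kept its 9 extra bases in 98.9% to 99.6% of reads. Of 2 calcium/calmodulin-dependent kinase subunits, Camk2d used the upstream site at 97.4% or more and Camk2b the downstream site, with 1.45% to 7.21% long form.

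Among membrane genes, Clcn1, the chloride channel that steadies the resting fibre membrane, showed 10.8%, 12.2% and 11.4% in control and 15.7%, 13.1% and 12.9% in knockout (log2 odds change 0.33 ± 0.34, adjusted p = 0.828). All knockout libraries lay above all control libraries, and the change did not pass. Gene-level reads of Clcn1 fell by 0.52 on the log2 scale (adjusted p = 0.0242). Ank3, which encodes an ankyrin of the membrane skeleton, showed 27.4%, 32.7% and 12.99% in control and 32.7%, 40.5% and 26.7% in knockout, with overlapping groups (adjusted p = 0.810).

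Metabolic genes gave 5 tested pairs, of which 0 passed in either direction, where 1.5% of all tested events were called. Cd36, a fatty acid transporter, stayed between 80.7% and 83.6% in all 6 libraries (log2 odds change 0.05, 95% interval -0.21 to 0.30). Cox4i1, a subunit of cytochrome c oxidase, was the most deeply read tandem pair and used the short form, which lacks 4 coding bases, in 2 to 7 reads per library beside 5021 to 7916 of the long form. Phkg1, the catalytic subunit of muscle phosphorylase kinase, had 3 short reads in all, and Gbe1, the glycogen branching enzyme, had 10 long reads in all. In these 3 pairs 1 site took nearly all reads in both groups. The other deeply read pairs, in Rpl13a, Atp5h, Sh3bgr and Oaz1, used the long form in at least 99.5% of reads in each library.

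At the limit of the chosen distance, the most deeply read pairs 12 bases apart were those of Ybx1, Hcfc1r1 and the 12-base pair of Pcbp2. Ybx1, a cold-shock domain RNA-binding protein, used the long form in 3.35% to 4.93% of control reads and 3.67% to 3.98% of knockout reads. Hcfc1r1 had 0 short reads beside 447, 329 and 384 long reads in control. In knockout it had 1, 6 and 1 short reads beside 691, 804 and 1027 long reads. The groups did not overlap, and the change did not pass (adjusted p = 0.738, limma). Gene-level reads of Hcfc1r1 rose by 0.88 on the log2 scale (limma adjusted p = 0.00613). Just outside the limit, at 13 bases, Rps27 used the long form in 99.9% or more of reads in each library. Trappc6b and Mtdh had control means of 6.71 ± 1.40% and 2.48 ± 0.70% (SD, n = 3 each).

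Genes on the lists of other cell types gave 2 tested pairs, of which 0 passed in either direction, where 1.5% of all events passed. Tie1, an endothelial receptor, had 1 short read in all 6 libraries, and Pmp22, a myelin protein of Schwann cells, had 1 in each control library and 0 in each knockout library (adjusted p = 0.576). Summed scaled reads of 4 Schwann cell markers were 2399, 1762 and 2155 in control and 1319, 1446 and 1348 in knockout, and 3 of the 4 passed the gene-level test as lower. Of 5 endothelial markers 3 passed as lower, of 4 smooth muscle markers 2 passed as lower, where 5.51% of all genes passed as lower. Of 6 fibre markers, among them Acta1 and Ckm, of 4 fibroblast markers and of 4 macrophage markers, 0 passed in either direction. In whole muscle, fewer cells of a type and less RNA per cell cannot be told apart. The part of these cells in the splice-site values was not tested.

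Host genes were compared at the level of the whole gene. Of the 367 genes with a tested tandem pair, 67 passed the limma test between knockout and control (18.3%), 37 higher and 30 lower, where 11.3% of all 14619 genes passed (839 or 5.74% higher and 806 or 5.51% lower). Their median log2 change was 0.02, beside -0.01 over all genes. Genes with a tested pair have many reads by selection, and the difference between these shares was not tested. Among the genes named above, Nsun5 and Oaz1 rose by 0.68 and 0.29 on the log2 scale (adjusted p = 0.0100 and 0.0322). Without control replicate 1, 2 or 3 the count of host genes was 12, 11 and 11 (3.27%, 2.997% and 2.997%), beside 3.26%, 3.34% and 3.50% of all genes. Without knockout replicate 7 it was 14 (3.81%), beside 4.77%. The higher share of host genes was thus not found in these 4 fits.

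The authors' deposited rMATS FDR, computed by rMATS on the same reads, lay under 0.05 for 18 of the 1008 tandem events, where 2.8% of all 3282 events had such a value (92 events). Per the authors' deposited table these were in Ssh3, Sufu, Adamts10 (2 events), Pknox1, Pcbp2, Nek3, Speg, Tatdn3, Aktip, Srrm1, Zfp788, Sgta, Rock1, Proser3, Clock, Apbb2 and Msh3. The long form was higher in knockout in 10 of them and lower in 8. Their mean depth had a median of 5.58 reads per library and ranged from 2 to 30.7, and 17 of the 18 fell under the filter of 20. The 1 tested event was the less deeply read row of the 3-base pair of Pcbp2, with an FDR of 0.0220 in the authors' deposited table, where the row with more reads had an FDR of 1.

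Reads behind these events were few in single libraries. Clock, the circadian transcription factor, had the largest difference among them, with 6, 2 and 1 long beside 4, 7 and 11 short reads in control and 3, 9 and 5 long beside 2, 1 and 0 short reads in knockout. The control percentages of 59.3%, 21.7% and 8.11% overlapped the knockout percentages of 59.3%, 89.7% and 100%. Msh3, a DNA mismatch repair protein, had 59.3%, 82.9% and 54.8% in control and 100%, 92.1% and 86.3% in knockout, without overlap, from 11.2 reads per library. Speg, a kinase of the muscle triad, had 3.33 reads per library and overlapping groups. Sgta, a co-chaperone, had 4 reads per library in the row with the low FDR, and the same acceptors had a second row with 207.2. There the long form took 15.0%, 17.2% and 18.4% in control and 21.4%, 19.0% and 23.5% in knockout, without overlap (log2 odds change 0.41 ± 0.23, adjusted p = 0.576 by limma, FDR of 0.563 in the authors' deposited table). Tatdn3 also had a second row with more reads, at 14.2 per library, which was still under the filter and not tested. Its mean long-form use was 48.7% in knockout and 37.1% in control, where the row with the low FDR had 64.8% and 91.5%. The groups overlapped in both rows.

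A second caller, CASH, listed 854 alternative 3′ splice sites within 12 bases among 6675, with 5 bases the smallest distance, so that the 3-base pairs have no second value. Of these 854, 0 had a deposited FDR or a deposited p under 0.05 in the authors' deposited table (smallest p = 0.238). CASH gives 1 pooled value per group with no SD. Its knockout column matched the sum of 2 of the 3 knockout libraries and its control column that of all 3 control libraries, in the exons where sums were equal. In CASH 192 of the 264 tandem pairs at 5 to 12 bases were found. Over 94 pairs with enough reads in both groups, the median gap between the rMATS and CASH control percentages was 0.510 points. For the 12-base pair of Pcbp2 the authors' CASH table gave 797 long and 1120 short reads in control (41.6%) and 569 and 841 in knockout (40.4%), and for Nptn it gave 31.5% and 25.6%.

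The callers differed where the long form was rare. Over 15 pairs with an rMATS control mean under 10%, the median was 5.31% from rMATS and 0% from CASH, and 10 of them were under 1% in CASH. Ndufv1, a subunit of respiratory complex I, had 5.96 ± 2.02% long form in control from rMATS, and 1 long and 2172 short reads in the CASH table. Ybx1 had 4.21 ± 0.80% from rMATS and 1.70% from CASH. The low long-form percentages of pairs at 5 to 12 bases, Ybx1 and Ndufv1 among them, thus depend on the caller. In all 1008 rows the length by which rMATS scaled the long form was 99 plus the distance, beside 99 for the short form. This scaling lowers the long-form percentage. Before scaling, Ndufv1 had 54, 72 and 27 long reads beside 809, 744 and 578 short reads in the rMATS control libraries. The cause of the gap between the callers was not tested.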

How the data were processed

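Total RNA, 0.3 µg per sample, entered a directional MGI library kit, per the labels' protocols. Per the submitters' processing notes, STAR 2.7.9a, RSEM 1.3.3, Trimmomatic 0.39 and FastQC 12.0 were used with GRCm39. The labels do not state separate mice, so the spread between samples, on which the tests rest, may be technical.

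The authors deposited rMATS junction reads with a p-value and FDR per event, per the file headers. Sample 1 was read as control, because the CASH control column equalled its 3 entries summed for 321 of 1441 exons (sample 2: 27 of 1566). The CASH knockout column equalled the first 2 entries of sample 2, summed, for 484 of 1566. Libraries inside a cell are unnamed and given in listed order. The deposited gene table holds log2 values of scaled reads plus 4.

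Percentages were recalculated from reads and form lengths and lay within 0.05 points of the deposited levels. Log2 odds (0.5 reads added to each form) were fitted with limma 3.58.1 in R 4.3.3, the prior variance trended on the expected counting variance. The prior degrees of freedom of this fit were infinite, so the SE and p-value of an event came from the trend. They did not measure that event's own spread between libraries. Gene values were fitted with limma and a mean-variance trend. Tests were two-sided with Benjamini-Hochberg adjustment, and the code was tested on simulated data. Of 53 pairs listed more than once, counts of pairs used the row with most reads.

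The members and gene lists were chosen with earlier results of these data known. Named were all calls, up to 6 tested events per list by smallest p, the 6 with most reads, and the 3 most read at 12 and at 13 bases. Acin1, the smallest p-values, deeper rows of named pairs, the TAG and GAG pairs and the events under the deposited FDR were added after values were seen. Some events that this rule names are not reported here.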

Additional observations from a re-analysis of the deposited data

How the results depend on the processing

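The count of tandem events called by limma, 1 as reported, was 0 with 0.1 reads added, with a mean of 50 reads per library, with no depth filter, without a variance trend, in the quasi-binomial test and with at least 12 reads of the rarer form (the last chosen after seeing the data). It was 2 with 1 read added (Tnni1 and Nsun5 among the named events) and 2 with a mean of 5 reads, and 0 to 1 when a library was left out. The count over all alternative 3′ splice sites, 24, was 0 without a trend, 49 by the deposited FDR on the same tested events, and 17 to 21 when a library was left out. The host-gene count, 67 (18.3%, beside 11.3% of all genes), was 10 without a trend (2.72%, beside 5.42%) and 11 to 59 when a replicate was left out. It was 59 and 51 (16.1% and 13.9%, beside 10.4% and 8.63%) without knockout replicates 5 and 8, and 11 to 14 without each of the others. Median long-form use at 3 bases, 69.7%, was 65.8% with a mean of 5 reads, 73.4% with 50, 66.2% with no filter, 70.9% over every listed row, and 67.4% to 69.6% when a library was left out. The cause of these shifts was not tested, apart from the filters and left-out libraries, which change what is tested. Over 46 named events and 735 recomputed values, 0 called directions turned, 704 kept sign and side of the threshold, 23 uncalled values changed sign, 7 of Tnni1 lost the call, and 1 of Nsun5 gained it. The quasi-binomial test gave no finite change for 10 of them, Tnni1 included, in which a group had 0 reads of a form. No paired analysis was possible because the groups share no replicate numbers.

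Depth limits the comparison: 599 of 1008 events did not pass the filter on total reads and reads of each form. The 95% interval of 327 tested events reached beyond a 2-fold change in odds. The 3-base pairs have no value from the second caller.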
